A study of Mus musculus with 2 samples.

Results

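The EGF family ligands and the ERBB receptors were taken as 10 genes by symbol from the count table of the series, out of 19294 genes listed in it. They were 7 ligand genes (Areg, Ereg, Egf, Hbegf, Btc, Epgn and Tgfa) and 3 receptor genes (Egfr, Erbb2 and Erbb3), and each of the 10 symbols was found. The table compared mRNA-seq read counts of mouse intestinal organoids (mIOs), which are 3-dimensional epithelial cultures grown from crypts of the jejunum in Matrigel. There was 1 control library and 1 library of mIOs treated with dextran sulfate sodium (DSS), a sulfated polysaccharide used to injure the intestinal epithelium, both at day 4. The mice of origin were Lgr5-EGFP-IRES-creERT2 in both cases. They express EGFP and an inducible Cre from the locus of the stem cell gene Lgr5. Both cultures were grown with added EGF, Noggin and R-spondin. No animal age was given for these mice, and the DSS concentration of the sequenced culture is not given in the sources used here. The added EGF is a protein, so it was not counted as Egf mRNA.

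EGF family ligands are made as membrane-anchored precursors and are released by proteases such as ADAM17 and ADAM10. They bind ERBB receptors, which pair with each other and pass the signal on through RAS and ERK and through PI3K. Areg, Tgfa, Egf and Epgn are known to bind EGFR, whereas Hbegf, Btc and Ereg also bind ERBB4. ERBB2 has no known ligand of its own and serves as a partner, and ERBB3 binds neuregulins and signals mostly through a partner. In the intestine, EGF receptor signaling is needed for crypt cells to divide, Paneth cells are a known source of EGF and TGF-alpha, and Areg and Ereg are known from the repair of injured epithelium.

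Epgn, Ereg, Areg and Btc are neighbours on chromosome 5 of the mouse. The 250 bases before the RefSeq start site are shown for Epgn, Areg and Btc, because these linked genes differed in level and in ratio. Sequences are from RefSeq on GRCm38.p6 and read 5′ to 3′ on the strand of the gene, with motif matches in capitals.
Epgn (chr5:91027267-91027516, plus strand): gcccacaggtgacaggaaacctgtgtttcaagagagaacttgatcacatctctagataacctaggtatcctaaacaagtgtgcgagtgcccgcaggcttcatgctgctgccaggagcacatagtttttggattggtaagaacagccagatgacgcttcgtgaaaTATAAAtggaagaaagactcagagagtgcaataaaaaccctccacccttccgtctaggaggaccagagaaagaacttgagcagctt
Areg (chr5:91139349-91139598, plus strand): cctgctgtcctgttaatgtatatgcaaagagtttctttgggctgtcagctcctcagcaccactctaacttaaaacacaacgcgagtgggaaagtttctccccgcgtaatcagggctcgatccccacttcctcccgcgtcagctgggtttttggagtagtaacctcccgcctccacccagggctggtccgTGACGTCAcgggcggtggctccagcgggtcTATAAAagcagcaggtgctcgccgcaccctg
Btc (chr5:91402995-91403244, minus strand): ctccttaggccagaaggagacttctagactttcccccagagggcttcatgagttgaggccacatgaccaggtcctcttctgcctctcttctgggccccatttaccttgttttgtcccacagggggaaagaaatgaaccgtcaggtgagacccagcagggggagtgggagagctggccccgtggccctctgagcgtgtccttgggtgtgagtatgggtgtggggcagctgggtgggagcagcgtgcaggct

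A promoter sequence was matched for 7 of the 10 genes, and none was matched for Ereg, Hbegf and Erbb3. The motifs searched on both strands were TGANTCA (AP-1), TGACGT (the core of the CRE), CTTTGA (TCF), CCGGAA (ETS) and TATAAA. In Areg, the CRE core was found on both strands in overlapping positions, from -61 to -56 and from -59 to -54 relative to the start site, and Areg was the 1 gene of the 7 with this core. Of 32851 promoter windows of the same length, 6.47% held it. TATAAA was found from -31 to -26 in Areg and from -86 to -81 in Epgn, and 12.4% of all windows held it. The Btc window held none of these letters. The ETS letters were found in Egfr and in a second annotated start of Egf, beside 12.0% of all windows. AP-1 letters were in 6.75% and TCF letters in 13.8% of all windows, and in 0 of the 7 genes.

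Sequencing depth was 65493032 counts for the control and 59746968 counts for DSS. The 10 genes together made up 0.0750% of all counts in the control and 0.129% after DSS, and single genes ranged from 6 to 27562 counts. Counts were scaled with TMM factors, and values are given as CPM (counts per 1000000 counts of the scaled library) or as the log2 ratio of scaled counts, DSS over control. Brackets of the form "95% interval" are exact Clopper-Pearson intervals of the 2 counts and cover counting error only. Each condition was sequenced once, without replicates. The values therefore compare 2 libraries, and no test between conditions was made. In such bulk samples, fewer cells of a type and less RNA per cell cannot be told apart. The labels name the cells as intestinal stem cells, and all 6 stem cell markers were counted in both libraries, with a summed level of 1595 CPM in the control and 211 CPM after DSS. Markers of enterocytes, goblet cells, Paneth cells and enteroendocrine cells were also counted in the control library.

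All 10 genes reached the minimum of 10 counts in the control or the DSS library, as did 17235 genes of the table. Epgn passed it only through the DSS library. The table lists no gene with a count of 0, and genes without reads in one or both conditions were not analysed here. Of the 10 genes, 9 had a log2 ratio above 0, beside 48% of all genes tested. This held for 9 genes with TMM factors, DESeq2 size factors, upper quartile factors and total counts. The share of all genes tested above 0 was 38.5% with total counts. A log2 ratio of 1 or more was found for 5 of the 10 genes, beside 19.3% of all genes tested. With total counts these were 3 genes (Ereg, Epgn and Erbb3), beside 15.4%, since Areg was then at 0.76 and Hbegf at 0.79. Because Epgn could enter only as a gene higher after DSS, a minimum of 10 counts in each library was also applied, which 9 of the 10 genes met. Of these, 8 were above 0, beside 47.7% of all such genes, and 4 were at 1 or more, beside 16.8%. None of the 10 was at -1 or less, beside 20.2% of all genes tested. Egf was at -1.13 with total counts, where 26.2% of all genes tested were at -1 or less. At -2 or less there were 0 of the 10 genes, beside 6.54% of all genes tested. The median log2 ratio was 0.97 over the 10 genes and -0.06 over all genes tested. When total counts replaced the TMM factors, the median of all genes moved by -0.26, and the share of higher genes among those past 1 or -1 was 37.1% in place of 48.9%.

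**Figure D1:**
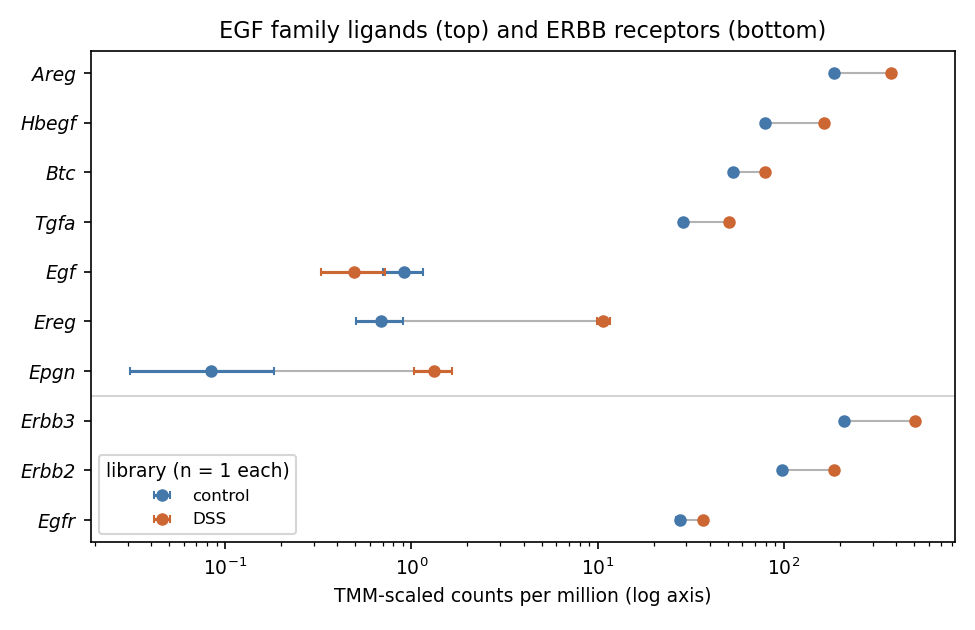
TMM-scaled CPM (log axis) of the 7 ligand genes and 3 receptor genes in the control library (blue) and the DSS library (orange), with exact 95% Poisson intervals for counting error. The DSS point lies to the right of the control point for 9 genes and to the left for Egf, whose intervals meet.

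Areg encodes amphiregulin, an EGFR ligand of injured and proliferating epithelium. Areg (NCBI gene 11839) was read 13368 times in the control and 20626 times after DSS, or 187 and 377 CPM. This was a 2.02-fold higher level in the DSS library, with a 95% interval from 1.98 to 2.06. The log2 ratio of 1.01 lay at the line of 1, and it was 0.76 with total counts and 1.10 with upper quartile factors.

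Hbegf encodes heparin-binding EGF-like growth factor, which is also known as an early gene of wounded epithelium. Hbegf (NCBI gene 15200) had 5678 control and 8953 DSS counts, or 79.3 and 164 CPM. The fold of 2.06, with a 95% interval from 1.996 to 2.134, was close to that of Areg. A ratio of 2 genes within 1 library does not depend on the scaling between libraries. There were 2.35 Areg counts for each Hbegf count in the control library and 2.30 with DSS, a log2 difference of -0.03 with a 95% interval from -0.09 to 0.03.

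Btc encodes betacellulin and Tgfa encodes transforming growth factor alpha. Btc (NCBI gene 12223) had 3841 and 4325 counts, a log2 ratio of 0.56 with a 95% interval from 0.50 to 0.62. Tgfa (NCBI gene 21802) had 2069 and 2792 counts, a log2 ratio of 0.82 with a 95% interval from 0.74 to 0.90. Both were higher in the DSS library by less than a log2 ratio of 1. Relative to Areg within the same library, Btc was lower in the DSS library, since Areg over Btc went from 3.48 to 4.77.

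Ereg encodes epiregulin and Epgn encodes epigen, and these were the ligands with the highest ratios. Ereg (NCBI gene 13874) had 49 counts in the control library and 586 with DSS, or 0.685 and 10.7 CPM. Its log2 ratio of 3.97, with a 95% interval from 3.55 to 4.42, was above those of 98.8% of all genes tested. Epgn (NCBI gene 71920) had 6 and 72 counts, and its log2 ratio was also 3.97, with a wide 95% interval from 2.78 to 5.47. These 2 genes were at or above a log2 ratio of 2, as were 7.87% of all genes tested. With 10 counts required in each library, Ereg alone of the 10 genes was there, beside 5.85%. Within the libraries, Ereg over Epgn was 8.17 in the control and 8.14 after DSS. Ereg gained on Areg, from 1 Ereg count for 273 Areg counts in the control library to 1 for 35.2 in the DSS library. The log2 difference of Areg over Ereg was -2.95, with a 95% interval from -3.41 to -2.53.

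Mesenchymal and immune cells are known sources of such ligands in tissue. Of 9 mesenchymal markers, 5 were in the table, and their sum was 6.66 CPM in the control and 36.1 CPM after DSS. Vim made up 5.23 and 34.0 CPM of these sums. Of the other markers, Acta2 had 4 and 20 counts, a log2 ratio of 2.71 with a 95% interval from 1.13 to 4.72. The intervals of the remaining 3 included 0, with 29 and 24 counts for Col1a1, 67 and 64 for Pdgfrb, and 3 and 7 for Pdgfra. Of 7 immune markers, 4 were in the table, with sums of 7.41 and 13.3 CPM. Most of this was Itgam at 5.24 and 11.5 CPM. Lyz2 was lower in the DSS library, with 137 and 71 counts, a log2 ratio of -0.56 with a 95% interval from -0.99 to -0.14. The intervals of Cd74, with 12 and 19 counts, and of Cd79a, with 6 and 7, included 0. Of 4 endothelial markers, 2 were in the table, with sums of 0.866 and 1.39 CPM. These 2 went in opposite directions, with 12 and 55 counts for Pecam1 (log2 ratio 2.58) and 50 and 21 for Vwf (log2 ratio -0.86). The part of such cells in the Ereg and Epgn values was not tested.

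Egf, the gene of epidermal growth factor itself, was the 1 member with a lower level in the DSS library. Egf (NCBI gene 13645) had 65 control and 27 DSS counts, or 0.908 and 0.494 CPM. The log2 ratio was -0.88, with a 95% interval from -1.58 to -0.21, and it stayed below 0 with each scaling tried. Egf was sparse in both libraries. All 8 Paneth cell markers were also lower in the DSS library, beside 52% of all genes tested. Their summed level was 1082 CPM in the control and 336 CPM after DSS, with a median log2 ratio of -1.13. Tgfa, the other ligand known from Paneth cells, was higher in the DSS library, at a log2 ratio of 0.82. The part of Paneth cells in the Egf and Tgfa values was not tested. The defensins among the Paneth cell markers have near-identical relatives that can share reads.

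Each receptor gene had a higher level in the DSS library. Erbb3 (NCBI gene 13867), the neuregulin receptor, had 15001 control and 27562 DSS counts, or 210 and 504 CPM. Its fold of 2.41, with a 95% interval from 2.36 to 2.45, was the highest of the receptors. Erbb2 (NCBI gene 13866), the partner without a ligand of its own, had 7028 and 10206 counts and a fold of 1.90, with a 95% interval from 1.84 to 1.96. Egfr (NCBI gene 13649), which binds all 7 ligands, had 1984 and 2018 counts and the lowest fold, 1.33, with a 95% interval from 1.25 to 1.42. On the log2 scale Egfr was at 0.41 with TMM factors and 0.16 with total counts, so that its size depended on the scaling more than its direction did.

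The receptors therefore did not keep one ratio to each other. Erbb2 over Erbb3 went from 0.469 in the control library to 0.370 in the DSS library, a log2 difference of -0.34 with a 95% interval from -0.39 to -0.29. Egfr over Erbb3 went from 0.132 to 0.0732, a log2 difference of -0.85 with a 95% interval from -0.95 to -0.76. These differences do not depend on the scaling. Of the 45 pairs that can be made from the 10 genes, 2 had an interval of the log2 difference that included 0, those of Areg with Hbegf and of Ereg with Epgn. For Ereg with Epgn that interval ran from -1.57 to 1.29, so a difference of either sign within this range was not detectable at this depth. All 9 enterocyte markers were higher in the DSS library, with sums of 2907 and 22734 CPM. So were all 7 goblet cell markers, with sums of 863 and 11692 CPM, and all 7 enteroendocrine markers, with 835 and 4283 CPM. Of all genes tested, 48% were above 0. The part of this change of cell types in the receptor and ligand values was not tested.

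**Figure D2:**
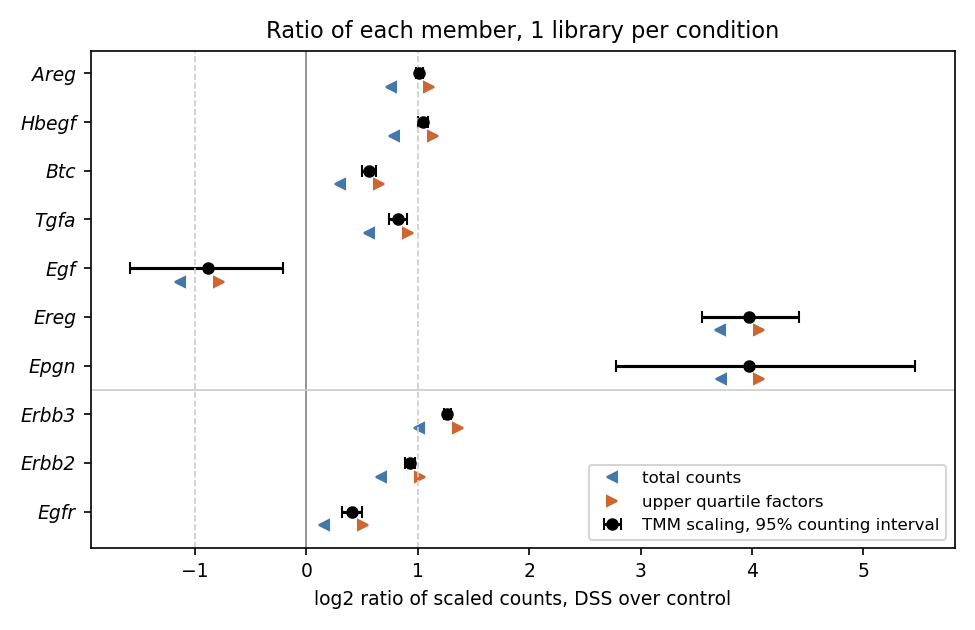
Log2 ratio of scaled counts, DSS over control, of the 10 genes with TMM factors (black, with exact 95% counting intervals), with total counts (blue) and with upper quartile factors (orange). Dashed lines mark log2 ratios of 1 and -1. Ereg and Epgn, both at 3.97, lie apart from the other genes, and Egf at -0.88 is the 1 gene to the left of 0.

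Levels of different genes were compared as CPM per kilobase of the longest protein-coding transcript. Among the ligands, Areg had the highest level in both libraries, at 154 CPM per kilobase in the control and 311 after DSS. It was followed by Hbegf at 33.4 and 68.9, Btc at 18.7 and 27.5, and Tgfa at 6.39 and 11.3 CPM per kilobase. The counting intervals of these 4 genes did not overlap within a library, and their order was the same in both. The 3 remaining ligands were below 3 CPM per kilobase. In the control library, Egf at 0.191 and Ereg at 0.166 CPM per kilobase had overlapping intervals, and Epgn was at 0.0476. In the DSS library the order was Ereg at 2.60, Epgn at 0.748 and Egf at 0.104 CPM per kilobase, so that Egf was the lowest ligand.

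Areg made up 72.3% of the summed ligand level per kilobase in the control library and 73.6% with DSS, with 95% intervals from 71.8% to 72.8% and from 73.2% to 74.0%. The share of Btc was 8.78% in the control and 6.52% after DSS. That of Ereg was 0.0780% and 0.616%, and that of Epgn 0.0224% and 0.177%. Despite their ratios, Ereg and Epgn thus remained a small part of the ligand mRNA. With the exon union as the length, the share of Areg was 82.3% in the control and 83.2% after DSS.

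Among the receptors, the order was Erbb3, Erbb2 and Egfr in both libraries, without overlap of the counting intervals. Their levels in the control library were 34.8, 19.6 and 2.72 CPM per kilobase. In the DSS library they were 83.8, 37.2 and 3.62 CPM per kilobase. Erbb3 made up 61.0% of the summed receptor level in the control library and 67.2% with DSS. Egfr, the receptor of all 7 ligands, made up 4.75% and 2.90%.

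The summed counts of the 7 ligands had a log2 ratio of 0.96, with a 95% interval from 0.94 to 0.99, and those of the 3 receptors 1.12, with a 95% interval from 1.09 to 1.14. Per kilobase, there were 3.72 units of ligand mRNA for each unit of receptor mRNA in the control library and 3.38 with DSS. The ligands known to bind EGFR only had a log2 ratio of 0.99 (95% interval from 0.96 to 1.02), which rested on Areg. Those known to bind EGFR and ERBB4 had a log2 ratio of 0.92 (95% interval from 0.89 to 0.96), which rested on Hbegf and Btc. Without Areg, the sum of the other 6 ligands had a log2 ratio of 0.91.

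**Figure D3:**
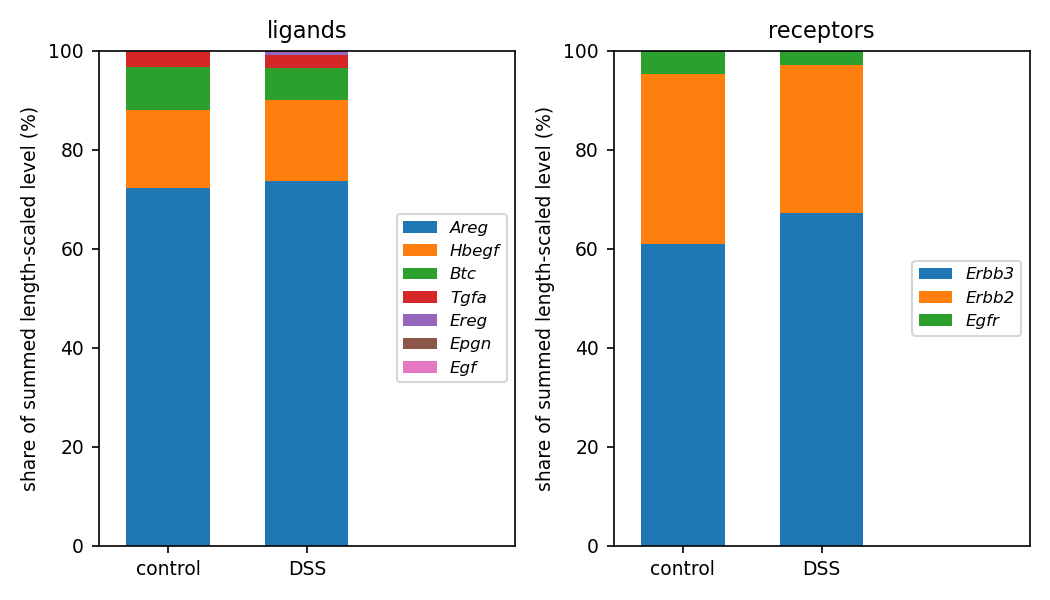
Share (%) of each gene in the summed CPM per kilobase of the 7 ligands (left) and of the 3 receptors (right), in the control and the DSS library, with the longest protein-coding transcript as the length. Areg fills 72.3% and 73.6% of the ligand bars, and the Erbb3 segment is 61.0% in the control and 67.2% after DSS.

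The 4 linked ligands lie in the order Epgn, Ereg, Areg and Btc. Their log2 ratios in this order were 3.97, 3.97, 1.01 and 0.56, and the 2 outer genes differed in level as well as in ratio. Of the RefSeq genes between them, the long noncoding RNA Gm19610 lies between Epgn and Ereg and had 10 and 46 counts, a log2 ratio of 2.59 with a 95% interval from 1.58 to 3.74. Gm19619 lies between Areg and Btc and had 71 and 226 counts, a log2 ratio of 2.06 with a 95% interval from 1.67 to 2.46. Both were higher in the DSS library too, and the ratio of Gm19619 was above those of Areg and Btc. A small nuclear RNA gene, Gm23092, lies between Areg and Gm19619 and was not analysed here. These noncoding genes are not members of the family and were chosen for their position. Gm19610 overlaps the start of Ereg on the other strand, and the sources used here do not say whether reads were counted by strand, so reads of the 2 genes cannot be told apart there.

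**Figure D4:**
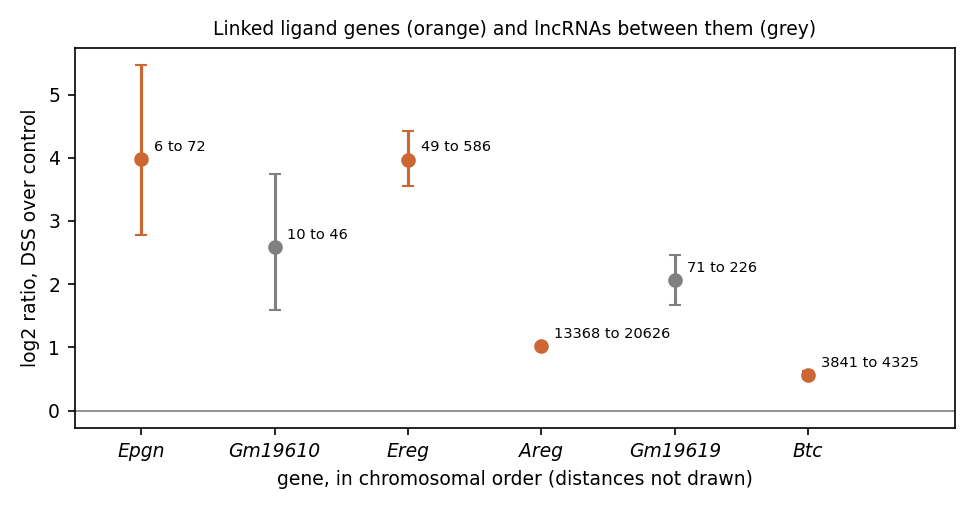
Log2 ratio, DSS over control, of the 4 linked ligand genes (orange) and of the 2 noncoding genes between them that are in the table (grey), in chromosomal order, with exact 95% counting intervals and the control and DSS counts beside each point. All 6 points are above 0, with Epgn and Ereg highest and Btc lowest.

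The rest of the ERBB pathway was read from 5 lists of 57 genes, of which 52 were in the table. A log2 ratio of 1 or more was found for 8 of the 52 genes (15.4%, beside 19.3% of all genes tested), and a log2 ratio of -1 or less for 5 (9.62%, beside 20.2%). With total counts the numbers were 5 and 6 genes, beside 15.4% and 26.2% of all genes tested. Between -1 and 1 lay 60.5% of all genes tested.

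Of the other family genes, Nrg4, which encodes a neuregulin that binds ERBB4, had 203 counts in the control library and 616 with DSS. Its log2 ratio was 1.99, with a 95% interval from 1.76 to 2.23. Erbb4, Nrg1, Nrg2 and Nrg3 were not analysed here, so the receptor of Nrg4 and the neuregulins known to bind ERBB3 are without values.

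Of 8 genes listed for ligand processing, 7 were in the table. All 7 lay within a log2 ratio of 1, beside 60.5% of all genes tested. They ranged from -0.42 to 0.89 with a median of -0.22. Adam17, the main protease for Areg, Ereg, Hbegf, Tgfa and Epgn, had 2791 and 1629 counts and a log2 ratio of -0.39, with a 95% interval from -0.48 to -0.30. Adam10, known to release Egf and Btc, had 13020 and 7413 counts and a log2 ratio of -0.42, with a 95% interval from -0.47 to -0.38. Of the other 5, Rhbdf1 at -0.22 and Rhbdf2 at -0.42 were also below 0, while Frmd8 at 0.89, Rhbdl2 at 0.59 and Adam9 at 0.25 were above it. These 7 genes were named after their values were seen.

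All 12 listed inhibitors of the receptors were in the table, with a median log2 ratio of 0.28. Lrig1, which promotes the degradation of ERBB receptors and also marks stem cells, was lowest, with 18923 and 3682 counts and a log2 ratio of -1.97. Errfi1, an inhibitor that binds the kinase of the receptors and is induced by their signal, had 6281 and 12163 counts and a log2 ratio of 1.34, with a 95% interval from 1.30 to 1.39. Ptprj, a receptor phosphatase, was at 1.23, or 0.98 with total counts. The other 9 inhibitors lay within a log2 ratio of 1, beside 60.5% of all genes tested. At 1 or more there were thus 2 of the 12, beside 19.3%, and at -1 or less 1 of the 12, beside 20.2%.

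Of 17 adaptors and members of the ERK cascade, 16 lay within a log2 ratio of 1, beside 60.5% of all genes tested, and the median was 0.11. Map2k2, one of the kinases that activate ERK, was the exception at 1.11, with 6547 and 10789 counts, and it was at 0.85 with total counts.

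Of the 15 genes that ERK signaling is known to induce, 4 were at a log2 ratio of 1 or more, beside 19.3% of all genes tested, and 4 at -1 or less, beside 20.2%. Their median was -0.33. With total counts the numbers were 3 and 5, beside 15.4% and 26.2% of all genes tested. Fos was then at 0.82 and Spry2 at -1.02. Higher in the DSS library were Fosl1 at 2.19 and Fos at 1.08, which encode AP-1 subunits, and Dusp5 at 2.10 and Dusp6 at 1.30, which encode ERK phosphatases. Fosl1 rested on 29 counts in the control library. Lower in the DSS library were the ETS factors Etv4 at -2.93 and Etv5 at -2.12, with 186 and 251 counts there, and the inhibitors Spry1 at -1.88 and Spred1 at -1.40. These are mRNA levels, and the activity of ERK or of the receptors was not measured.

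**Figure D5:**
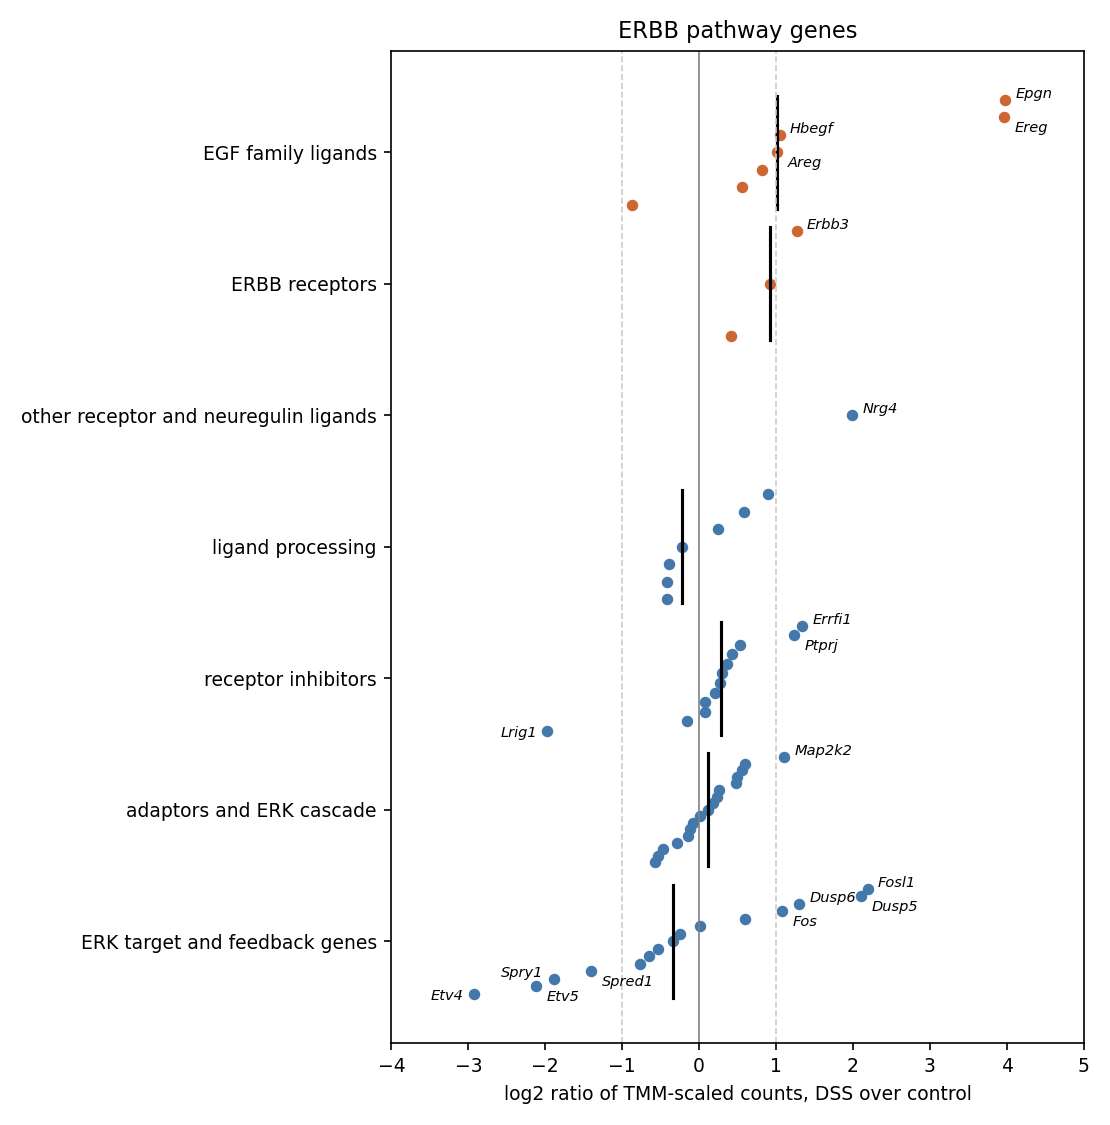
Log2 ratio, DSS over control, of the ligands and receptors (orange) and of the other ERBB pathway genes in the table (blue), 1 point per gene, with genes at or past 1 or -1 named and black lines at the median of each list. The 7 genes of ligand processing lie within the dashed lines at 1 and -1, while the ERK target genes reach from Etv4 at -2.93 to Fosl1 at 2.19.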

How the data were processed

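Gene expression was measured by stranded poly(A) mRNA-seq in 1 control and 1 DSS-treated mIO culture. The deposited values are raw counts of reads for each gene, which the authors listed by NCBI gene identifier and RefSeq transcripts. Each sample also has a file with FPKM in its name, and its values equal these counts for all 19294 genes. The submitters' processing notes name HISAT2 and StringTie, and their roles, the genome build and the handling of strand and of shared reads are not given in the sources used here.

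Counts (control 65493032, DSS 59746968) were scaled with TMM in edgeR 4.0.16 under R 4.3.3. Log2 ratios carry exact 95% intervals for counting error, and intervals of pair ratios are exact and conditional. Each condition has 1 library, which allows neither a test nor an error between replicates. Genes were tallied if they reached 10 counts in either condition, with lines of 1 and -1 on the log2 scale. Lengths are those of the longest protein-coding transcript of GENCODE vM21, by symbol. Promoters and gene order are from RefSeq (GRCm38.p6). The members and lists were chosen with earlier results of these data known. Named genes outside the family were those at or past 1 or -1 that reached 50 counts in either condition, unless stated. With 2 libraries, no genes were named for a like pattern. As alternatives, counts were scaled by upper quartile factors, by total counts or by the size factors of DESeq2 1.42.0, thinned, or given a prior count of 2, and other filters, a line of 2 and the exon union as length were tried. Interval code was tested on simulated data. Python 3.11.15, scipy 1.17.1, pandas 2.3.3 and matplotlib 3.10.9 were used.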

Additional observations from a re-analysis of the deposited data

How the results depend on the processing

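The 10 log2 ratios kept their sign under all 6 alternatives to TMM on all counts, which were upper quartile factors, total counts, the size factors of DESeq2, thinning the deeper control library, a prior count of 2 and centring on the median of all genes, the last chosen after seeing the data. Of the 60 values, 42 lay inside the counting interval of the reported ratio and 18 outside it, the latter with total counts, upper quartile factors or centring. With total counts, 3 of the 10 genes (Ereg, Epgn and Erbb3) were at 1 or more in place of 5, and 5 in place of 8 pathway genes were. Of all genes tested, 15.4% were at 1 or more with that scaling. With a line of 2 on the log2 scale, 2 of the 10 genes, 2 pathway genes upward and 2 downward, and 1356 and 1127 of all genes tested were past it. With the exon union as length, Areg took 82.3% of the ligand level in the control and 83.2% after DSS, Erbb3 took 62.1% and 68.2% of the receptor level, and Egf fell below Ereg in the control library. Epgn had under 10 counts in the control library, and a filter on both libraries left it out, with 8 of the other 9 genes above 0 and 4 at 1 or more. The alternative on FPKM values was not run, because the deposited files hold counts. No paired analysis was possible because each condition has 1 library, and no replicate could be left out. Depth limits Epgn and Egf most, with intervals of the log2 ratio from 2.78 to 5.47 and from -1.58 to -0.21.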
